A study of Mus musculus with 12 samples.

Results

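The genes for ISG15 and for the enzymes that attach and remove it were followed in SIM-A9 cells, a mouse microglial cell line, with and without the kinase MOK and with and without lipopolysaccharide (LPS). They were chosen by name, as the rows of the count table whose Ensembl identifier carries the symbol Isg15, Uba7, Ube2l6, Herc6 or Usp18, and all 5 were found among the 55416 gene identifiers and passed the filter on low counts. The wild-type line (WT) and the H14 line, labelled MOK-KO (KO here), both carry the C57BL/6 strain label and were kept in culture with medium alone or for 5 h with 1 µg/mL of LPS, a bacterial product sensed by Toll-like receptor 4. Total RNA depleted of ribosomal RNA was sequenced from 3 libraries, labelled as biological replicates, in each of the 4 groups. The labels do not say how the replicate cultures were separated. The p-values weigh group differences against the spread between these libraries, and how far they hold for other cultures is not known. A single KO line stands for the loss of MOK, so the effect of that loss cannot be told apart from anything else in which the lines differ.

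ISG15 is a small ubiquitin-like protein whose gene is induced by type I interferon, and in microglia as in other macrophages LPS leads to interferon-β release through Toll-like receptor 4. The enzyme UBA7 (E1) activates ISG15, UBE2L6 (E2) carries it, and HERC6, the main ligase (E3) in the mouse, passes it to target proteins. The protease USP18 removes ISG15 from those targets, and it also binds the interferon receptor subunit IFNAR2 and dampens signalling.

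Promoter windows were taken from RefSeq (GRCm38.p6), which held an entry for 4 of the 5 genes (not for Usp18), each running from 250 bases before to 50 bases after the annotated start. The 150 bases from position -140 to position 10 are shown on the gene's own strand because they hold the interferon-related motif matches. The motif searched was the core of the interferon-stimulated response element, GAAANNGAAA, on both strands. Capitals mark the matches in Isg15 and, in Uba7, a match to the same core less its first base (AAANNGAAA), which was searched after the windows were seen and lies on the opposite strand. The windows are chr4:156200809-156200958 (minus strand) for Isg15, chr9:107975427-107975576 (plus strand) for Uba7, chr2:84798688-84798837 (plus strand) for Ube2l6 and chr6:57580852-57581001 (plus strand) for Herc6.
Isg15: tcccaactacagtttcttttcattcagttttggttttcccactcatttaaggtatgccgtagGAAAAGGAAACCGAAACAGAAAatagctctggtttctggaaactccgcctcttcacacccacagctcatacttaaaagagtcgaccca
Uba7: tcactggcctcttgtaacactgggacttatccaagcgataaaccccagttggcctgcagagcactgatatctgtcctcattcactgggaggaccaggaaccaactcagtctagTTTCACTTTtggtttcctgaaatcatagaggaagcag
Ube2l6: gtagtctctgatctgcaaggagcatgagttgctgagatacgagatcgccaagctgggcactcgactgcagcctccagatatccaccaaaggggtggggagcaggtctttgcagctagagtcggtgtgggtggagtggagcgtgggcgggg
Herc6: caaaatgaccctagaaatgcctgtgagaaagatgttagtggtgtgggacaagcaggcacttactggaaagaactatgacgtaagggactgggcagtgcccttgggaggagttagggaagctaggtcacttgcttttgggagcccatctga

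The Isg15 window held 3 overlapping matches to the full core, at positions -78 to -69, -72 to -63 and -66 to -57. The shortened core overlaps the full one, and in Uba7 it matched once, at positions -27 to -19. Neither form was found in the 300-base windows of Ube2l6 and Herc6. Of all 32851 mouse promoter windows of this length, 3.44% held the full core and 10.6% the shortened one. The letters TTCNNNGAA (the GAS element), held by 8.30% of all windows, and the NF-kB site, held by 6.93%, were not found in any of the 4. A match is a run of letters and not a measured binding site.

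Library totals were 39.7 M to 72.9 M counts. KO LPS replicate 2 stood apart from its group, with a chi-square per degree of freedom of 185.8 and 103.3 against the other 2 libraries and with 10.4% of its counts in unnamed identifiers (4.88% to 8.18% in the other 11 libraries). In WT medium the chi-square per degree of freedom was 157.6 between replicates 2 and 3, 76.0 between 1 and 2, and 59.0 between 1 and 3. Replicates 2 and 3 were thus the furthest apart there. Processed pseudogenes took 6.28% to 7.35% of the counts under LPS in both lines, 6.58% to 13% in WT medium (the highest in replicate 2) and 12.8% to 14.3% in KO medium. Mok itself was still counted in the KO line, at 95 to 117 counts in medium against 158 to 206 in WT, and at 56 to 84 under LPS against 87 to 164. The part of the gene that was altered in H14 is not given in the sources used here, so these counts do not check the knockout. The 12 microglia and macrophage markers summed to 803 to 1668 counts per M counts of the TMM-scaled library (CPM) over all libraries. By group the sums were 1152 to 1352 CPM in WT medium and 803 to 1163 CPM in KO medium. Under LPS they were 1447 to 1668 CPM in WT and 1061 to 1476 CPM in KO. The KO sums thus ran lower, with some overlap in both conditions. P2ry12 averaged 1 CPM or less in all 4 groups, Tmem119 under LPS in both lines, and Aif1 and Cx3cr1 in KO under LPS.

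LPS raised all 5 genes in WT cells. Isg15 rose 144-fold, the ligase Herc6 14.7-fold, the protease Usp18 12.3-fold, the E1 Uba7 7.56-fold and the E2 Ube2l6 3.6-fold. Over all 26420 genes tested, 16.3% were called higher and 16.3% lower in this comparison, at an edgeR quasi-likelihood adjusted p under 0.05. The libraries of 24.05% of genes lay entirely higher under LPS and those of 18.97% entirely lower. The plot of CPM by library shows the values gene by gene.

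**Figure D1:**
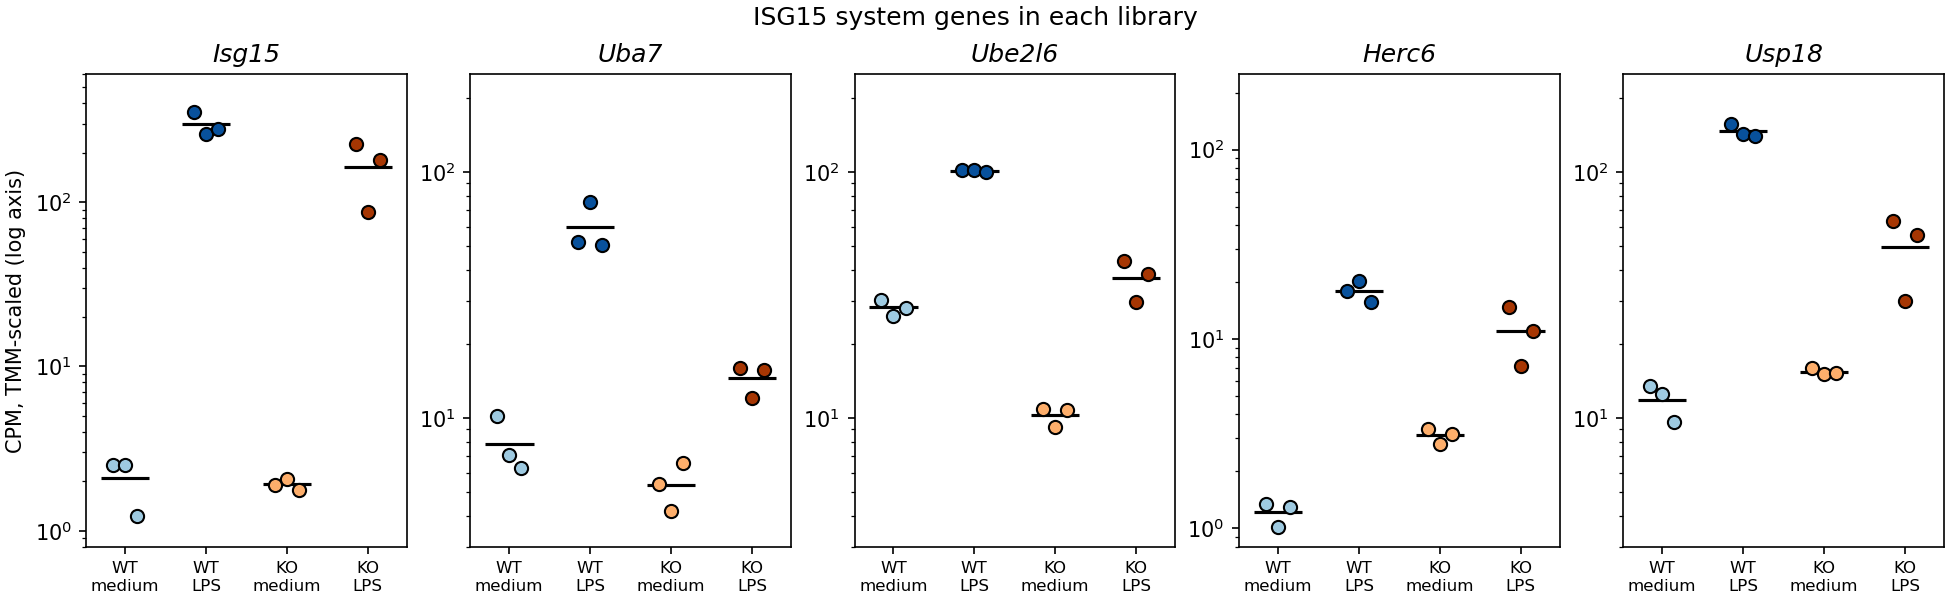
CPM (TMM-scaled, log axis) of the 5 ISG15 system genes in each library (points, replicates 1 to 3 from left to right in each group) with the group mean (line). Under LPS every library lies above the medium libraries of its own line, and Isg15 spans the widest range, from 1.23 to 354 CPM.

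Isg15, the modifier, stood at 2.53, 2.51 and 1.23 CPM in WT medium (120, 116 and 79 counts in replicates 1, 2 and 3) and at 354, 260 and 279 CPM in WT LPS. The groups lay far apart, and the log2 fold change was 7.17 ± 0.43 (model standard error, as for all log2 values; adjusted p = 8.98e-07, edgeR). Uba7 was at 10.2, 7.11 and 6.29 CPM in medium and at 52.2, 75.8 and 50.7 CPM under LPS, without overlap. Its log2 fold change was 2.92 ± 0.24 (adjusted p = 5.17e-06, edgeR). Ube2l6 was the most even of the genes within the LPS group, at 30.3, 26.1 and 28.1 CPM in medium and 101.3 ± 0.8 CPM (SD, n = 3) under LPS, a log2 fold change of 1.85 ± 0.13 (adjusted p = 1.10e-06, edgeR).

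Herc6 was at only 1.35, 1.02 and 1.29 CPM in WT medium (64, 47 and 83 counts) and reached 17.9, 20.2 and 15.7 CPM with LPS. It changed by 3.87 ± 0.25 on the log2 scale (adjusted p = 7.40e-07, edgeR). Usp18 moved from 13.5, 12.5 and 9.63 CPM to 157, 143 and 140 CPM, or 3.62 ± 0.25 (adjusted p = 1.46e-06, edgeR). For both genes the lowest LPS library was far above the highest medium library. In bulk RNA a lower level in every cell and fewer expressing cells cannot be told apart, here and in each comparison that follows.

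LPS raised all 5 genes in the KO line as well. Isg15 rose 86.0-fold, while the 4 enzymes rose by similar amounts, Ube2l6 3.62-fold, Herc6 3.55-fold, Usp18 3.21-fold and Uba7 2.72-fold. Of all genes tested, 25.3% were called higher and 26.8% lower.

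Isg15 was at 1.91, 2.05 and 1.78 CPM in KO medium and at 226, 86.9 and 181 CPM in KO LPS, a log2 fold change of 6.43 ± 0.42 (adjusted p = 1.62e-06, edgeR). Replicate 2 was the lowest KO LPS library for each of the 5 genes. Uba7 went from 5.39, 4.18 and 6.55 CPM to 16.0, 12.1 and 15.7 CPM, by 1.44 ± 0.23 (adjusted p = 0.000759, edgeR). Ube2l6 went from 10.9, 9.19 and 10.7 CPM to 43.7, 29.7 and 38.5 CPM, by 1.86 ± 0.13 (adjusted p = 1.18e-06, edgeR). No gene of the set overlapped between medium and LPS in KO, where the libraries of 28.8% of all tested genes lay entirely higher under LPS and those of 32.6% entirely lower.

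Herc6 stood at 3.34, 2.81 and 3.14 CPM in KO medium and at 14.8, 7.21 and 11 CPM under LPS, a log2 fold change of 1.83 ± 0.23 (adjusted p = 0.000126, edgeR). Usp18 stood at 15.9, 15.1 and 15.3 CPM and then at 63.4, 29.9 and 55.7 CPM, a change of 1.68 ± 0.23 (adjusted p = 0.000266, edgeR). Leaving out KO LPS replicate 2 kept all 5 calls. The share of processed pseudogene counts fell from KO medium to KO LPS, and with that share as a covariate Uba7 kept its value (1.52) but not its call (adjusted p = 0.0770).

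The LPS response itself differed between the lines for 3 of the 5 genes. The interaction, which is the log2 LPS effect in KO minus that in WT, was -2.04 ± 0.33 for Herc6 (adjusted p = 0.0105), -1.94 ± 0.32 for Usp18 (adjusted p = 0.0141) and -1.48 ± 0.32 for Uba7 (adjusted p = 0.0497), all by edgeR. These are rises that were 4.13-fold, 3.84-fold and 2.78-fold smaller in KO. The log2 difference of KO against WT was 1.34 in medium and -0.70 under LPS for Herc6. It was 0.38 and -1.56 for Usp18, and -0.55 and -2.03 for Uba7. The larger part of the Herc6 interaction thus came from its higher level in KO medium. Over all genes 0.908% were called lower and 0.693% higher in the interaction (240 and 183 genes), and WT medium replicate 2 alone moved these counts to 2391 and 1606 when it was left out. Ube2l6 had an interaction of 0.01 ± 0.17 (adjusted p = 0.985), with a 95% interval from -0.37 to 0.39, so a difference of its LPS response by more than 1.31-fold in either direction lies outside the interval. For Isg15 the interaction was -0.75 ± 0.50 (adjusted p = 0.544), with a wide interval from -1.86 to 0.37 that leaves its difference unresolved.

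The Uba7 call was marginal. It was lost with the replicate block and on leaving out any 1 of 9 of the 12 libraries, and remained without WT medium replicate 1, WT medium replicate 2 or KO medium replicate 2. The interactions of Herc6 and Usp18 kept their calls on leaving out any 1 library. With the processed pseudogene share in the fit, Usp18 was at -1.70 (adjusted p = 0.0774) and Uba7 at -1.44 (adjusted p = 0.193), neither of them called, and Herc6 stayed called.

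**Figure D2:**
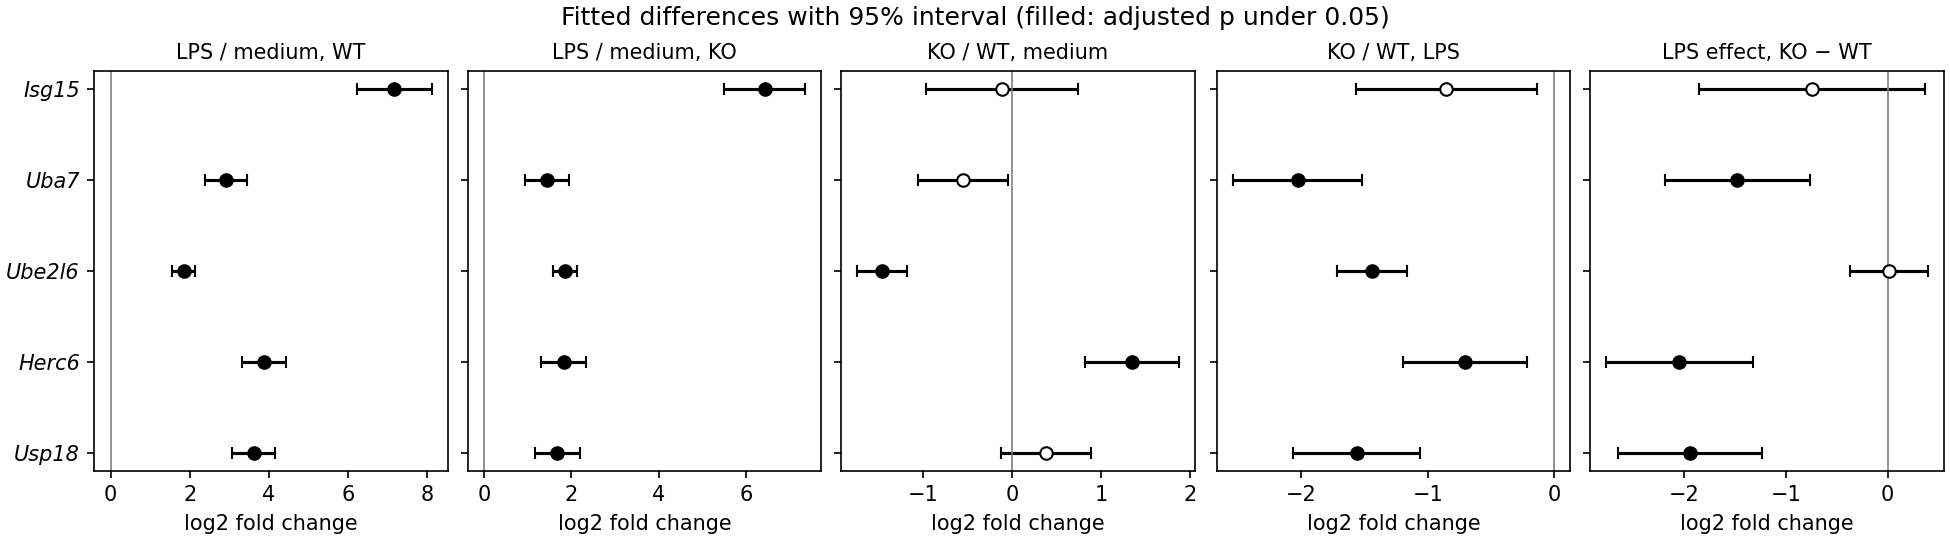
Fitted log2 fold changes of the 5 genes (points) with 95% intervals (bars) in the 4 comparisons and, at the right, the LPS effect in KO minus that in WT. Filled points passed the adjusted p of 0.05, and the scales of the panels differ. Ube2l6 has a line difference of -1.45 in medium and -1.44 under LPS, whereas Herc6 is above 0 in medium and below 0 under LPS.

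In medium the lines differed in opposite directions for the ligase and the E2. KO cells had 2.53-fold more Herc6 RNA and 2.74-fold less Ube2l6 RNA than WT cells, while Isg15, Uba7 and Usp18 did not pass the test. Among the genes tested, 6.88% were called higher and 12.3% lower in KO (1818 and 3256 genes, or 6110 and 5155 without WT medium replicate 2). The KO libraries lay entirely above the WT libraries for 16.01% of genes and entirely below for 19.61%.

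Herc6 averaged 3.10 ± 0.27 CPM (SD, n = 3) in KO medium against 1.22 ± 0.18 CPM in WT medium, and the libraries did not overlap. Its log2 fold change was 1.34 ± 0.24 (adjusted p = 0.00233, edgeR). Ube2l6 averaged 10.3 ± 0.9 CPM in KO and 28.2 ± 2.1 CPM in WT, also without overlap, a difference of -1.45 ± 0.13 (adjusted p = 1.51e-05, edgeR). Both calls held under every alternative that was run.

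The libraries of the 2 lines overlapped for Isg15 and Uba7 in medium. Isg15 differed by -0.11 ± 0.38 (adjusted p = 0.855, 95% interval -0.96 to 0.74) and Uba7 by -0.55 ± 0.23 (adjusted p = 0.116, interval -1.06 to -0.04). Usp18 was slightly higher in every KO library, at 15.1 to 15.9 CPM against 9.63 to 13.5 CPM. That difference, 0.38 ± 0.23, did not pass the test (adjusted p = 0.248, interval -0.12 to 0.88, edgeR), but it was called without KO LPS replicate 2 (adjusted p = 0.0409).

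Under LPS the KO libraries lay below the WT libraries for all 5 genes, and 4 of the 5 differences passed the test. Uba7 was 4.08-fold lower, Usp18 2.95-fold lower, Ube2l6 2.72-fold lower and Herc6 1.63-fold lower. Over all genes 12.7% were called lower in KO and 7.87% higher, and the KO libraries lay entirely below the WT libraries for 19.6% of genes.

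Uba7 averaged 14.6 ± 2.2 CPM in KO LPS against 59.6 ± 14 CPM in WT LPS, a log2 fold change of -2.03 ± 0.23 (adjusted p = 8.73e-05, edgeR). Usp18 averaged 49.7 ± 17.6 CPM against 146 ± 9 CPM, a difference of -1.56 ± 0.23 (adjusted p = 0.000542, edgeR). Ube2l6 averaged 37.3 ± 7.1 CPM against 101.3 ± 0.8 CPM, or -1.44 ± 0.13 (adjusted p = 9.83e-06, edgeR), a gap of the same size as in medium. These 3 calls held under every alternative.

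The Herc6 difference was the smallest and least firm of the 4, at 11 ± 3.8 CPM in KO and 17.9 ± 2.3 CPM in WT. Its log2 fold change was -0.70 ± 0.22 (adjusted p = 0.0453, edgeR), and it fell to -0.47 (adjusted p = 0.101) without KO LPS replicate 2. Leaving out any 1 of 9 of the 12 libraries ended the call, which remained without WT medium replicate 2, WT medium replicate 3 or KO LPS replicate 1. Herc6 was called higher in KO in medium and lower under LPS. Usp18 also had values of opposite sign, of which only the one under LPS was called.

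Isg15 averaged 165 ± 71 CPM in KO LPS and 298 ± 50 CPM in WT LPS. The difference of -0.85 ± 0.32 missed the threshold (adjusted p = 0.0933, interval -1.57 to -0.14, edgeR), although the highest KO library, at 226 CPM, was under the lowest WT library, at 260 CPM. It was called by DESeq2 (-0.88, adjusted p = 0.0422), and on leaving out either WT medium replicate 3 (0.0457) or KO LPS replicate 1 (0.0453). Without KO LPS replicate 2 it was -0.55 (adjusted p = 0.170).

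Markers of other cell types were low in all groups, but some moved with the line. The 4 oligodendrocyte markers summed to 24.7 to 25.4 CPM in KO medium and 9.47 to 14.7 CPM in WT medium, and to 11 to 14.7 CPM in KO LPS and 6.71 to 6.99 CPM in WT LPS. Of the 3 T cell markers only Cd3e averaged over 1 CPM. Their sum was 13 to 21.4 CPM in KO LPS and 8.47 to 9.90 CPM in WT LPS. In medium it overlapped between the lines, at 1.09 to 5.19 CPM in KO and 1.43 to 9.35 CPM in WT. The 4 neuron markers summed to 6.56 to 7.21 CPM in KO medium against 4.05 to 5.23 in WT, and to 5.06 to 5.98 in KO LPS against 3.66 to 4.35. The 4 astrocyte markers summed to 2.69 to 3.44 CPM in KO LPS and 1.90 to 2.25 in WT LPS. In medium they overlapped, at 2.99 to 3.47 CPM in KO and 2.11 to 3.01 CPM in WT. Only 1 of the 4 neuron markers and 1 of the 4 astrocyte markers averaged over 1 CPM in any group. For the oligodendrocyte markers this held for 1 of 4 in WT LPS and 2 of 4 in each other group. No B cell, fibroblast or endothelium marker averaged over 1 CPM in any group. The 3 B cell markers summed lower in KO LPS (0.68 to 0.75 CPM) than in WT LPS (0.81 to 0.93). The 3 fibroblast markers were lower in KO medium (0.57 to 0.76 against 0.78 to 0.93) and higher in KO LPS (1.01 to 1.29 against 0.87 to 0.97). The 3 endothelium markers were higher in KO LPS (1.37 to 1.72 against 1.14 to 1.36). In medium the B cell and endothelium sums overlapped. None of the listed markers was at 0 through a whole group. The part of these markers in the line differences was not tested.

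The balance between Isg15 and its enzymes was compared within libraries as Isg15 counts per count of the enzyme, which library scaling does not affect. These counts are not scaled for length, and Isg15 has the shortest merged exons of the set. In medium Uba7, Ube2l6 and Usp18 each had more counts than Isg15 in every library. Herc6 had more in the 3 KO libraries and in 1 of the 3 WT libraries. Per kb of merged exon, however, mean Isg15 was above Uba7 and Herc6 in the medium of both lines. Under LPS Isg15 exceeded each of the 4 enzymes in every library of both lines. Per Usp18 count there were 2.26, 1.82 and 2.00 Isg15 counts in WT LPS and 3.57, 2.91 and 3.25 in KO LPS, 1.60-fold more in KO and without overlap. Per Uba7 count there were 6.78, 3.43 and 5.51 in WT LPS and 14.1, 7.17 and 11.5 in KO LPS, 2.09-fold more and again without overlap.

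A two-sided exact permutation test gave p = 0.1 for both ratios, which is the smallest p that 3 libraries against 3 can give, and 0.2 after Benjamini-Hochberg adjustment over the 8 ratio tests. Isg15 per Ube2l6 count was 2.94 ± 0.48 (SD, n = 3) in WT LPS and 4.27 ± 1.19 in KO LPS (exact p = 0.2). Isg15 per Herc6 count was 16.8 ± 3.6 and 14.6 ± 2.3 (exact p = 0.4), and both of these overlapped between the lines.

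In medium the ratios to the E2 and the ligase went in opposite directions, as the 2 genes themselves did. Isg15 per Ube2l6 count was 0.0833, 0.0962 and 0.0438 in WT and 0.175, 0.224 and 0.166 in KO, while Isg15 per Herc6 count was 1.88, 2.47 and 0.952 in WT and 0.570, 0.732 and 0.568 in KO. Neither overlapped, and each had an exact permutation p of 0.1. The ratios to Uba7 (0.265 ± 0.080 in WT, 0.373 ± 0.111 in KO) and to Usp18 (0.172 ± 0.039 and 0.124 ± 0.010) overlapped between the lines, with an exact p of 0.2 each.

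**Figure D3:**
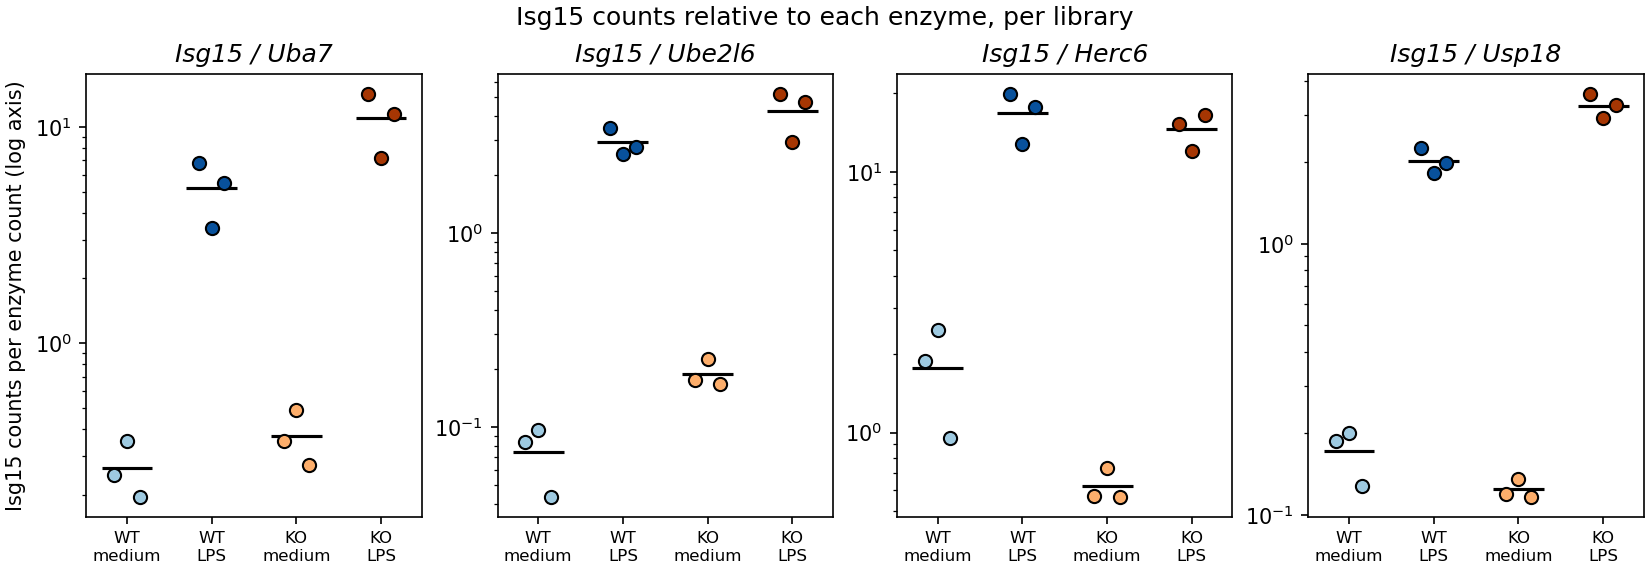
Isg15 counts per count of each enzyme in each library (points) with the group mean (line), on a log axis. Under LPS the KO libraries lie above the WT libraries for Uba7 and Usp18, and overlap them for Ube2l6 and Herc6.

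Levels were compared between genes per kb of merged exon. In WT medium the E2 led, with Ube2l6 at 14.1 CPM per kb, then Usp18 at 4.26, Isg15 at 2.76, Uba7 at 1.18 and Herc6 at 0.13 CPM per kb, and no neighbours in that order overlapped. In WT LPS Isg15 came first at 394 CPM per kb, above Usp18 at 52.5 and Ube2l6 at 50.8, which overlapped, then Uba7 at 8.90 and Herc6 at 1.93 CPM per kb.

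In KO medium Usp18 (5.54 CPM per kb) and Ube2l6 (5.15) overlapped at the top, above Isg15 (2.53), Uba7 (0.80) and Herc6 (0.33). In KO LPS Isg15 was at 218 CPM per kb, Ube2l6 at 18.7 and Usp18 at 17.8 with overlap, Uba7 at 2.18 and Herc6 at 1.19. With the longest transcript as the length, Usp18 stood above Ube2l6 in KO LPS (28.0 and 23.9 CPM per kb, with overlap). That length also parted the 2 genes in WT LPS (82.7 and 64.9) and in KO medium (8.72 and 6.59), and it made Isg15 (2.76) and Uba7 (2.18) overlap in WT medium. Herc6 was lowest and Uba7 next lowest in all 4 groups.

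Likeness was measured as the root mean square difference of log2 CPM over the 12 libraries, each gene centred on its own mean. Candidates were 10061 genes whose log2 CPM averaged at least 2 and whose symbol had a regular form. Identifiers without a symbol and symbols of other forms, such as Gm with a number or those ending in Rik, were left out. Closest to Isg15 were Cd69 (0.65), an activation antigen of immune cells, Parp14 (0.66), an ADP-ribosyltransferase, and Saa3 (0.67), an acute phase protein. Among the 3 genes closest to Usp18 were Rnf213 (0.21) and Sp110 (0.30). Uba7 was nearest to Phf11d (0.23), Sp140 (0.28) and Tdrd7 (0.29), and Ube2l6 to Oas1a (0.20), a sensor of double-stranded RNA, Tank (0.24) and Rnf114 (0.24).

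Herc6 was nearest to Slfn8 (0.32), Ptges (0.44), an enzyme of prostaglandin E synthesis, and Nod2 (0.44), a sensor of bacterial cell wall fragments. Within the set, Uba7 and Ube2l6 were the closest pair (0.46), followed by Uba7 and Usp18 (0.49) and by Herc6 and Usp18 (0.50). Isg15, with its much larger rise, lay 2.06 to 2.52 from each of the others. None of the 5 had another member among its 3 nearest genes.

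The rise of the 5 genes was set beside that of relatives in other ubiquitin-like systems. LPS called higher 5 of 11 other modifiers tested in WT and 5 in KO, and the highest value among them was 0.58 on the log2 scale in WT (Ubb). Of 9 other E1 subunits 5 were called higher in WT and 4 in KO, led by Uba6, an E1 for ubiquitin (0.83 in WT, 0.75 in KO). Of 4 other HERC genes 2 were higher in each line, and Herc4 was at 0.39 in WT and 0.28 in KO, both calls being lost under scaling by library size alone and the one in KO also without a filter, with the pseudogene share in the fit and among protein-coding genes only. The median log2 fold changes were 0.25, 0.37 and 0.35 in WT for these 3 lists, against -0.07 for all genes.

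The E2 enzymes differed. Ube2f, an E2 for NEDD8, rose by 1.72 ± 0.08 (adjusted p = 3.88e-08, edgeR) in WT and by 1.90 ± 0.08 (adjusted p = 1.91e-08) in KO, close to the values of Ube2l6. Ube2l3, an E2 of ubiquitin from the same family as Ube2l6, had values of 0.03 and 0.09 and did not pass the test in any comparison. Of the 7 other E2 genes 4 were called higher in WT, with a median of 0.26, and 3 in KO. The line difference of Ube2l6 lay outside the range of the 7, which ran from -0.41 (Ube2z) to 0.49 (Ufc1) in medium and from -0.60 to 0.38 under LPS.

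Among 48 other USP proteases tested, LPS called 20 higher and 4 lower in WT (median 0.30), and 25 higher and 6 lower in KO (median 0.33). Usp25 had the largest value in WT, 1.52 ± 0.13 (adjusted p = 5.17e-06, edgeR), against 3.62 for Usp18. In KO Usp18 did not lead, as its value of 1.68 was below those of Usp26 (2.01, adjusted p = 0.0106, edgeR) and Usp43 (1.74, adjusted p = 0.0022), both scarce genes. Usp25 was 0.63 ± 0.13 in KO (adjusted p = 0.00261, edgeR, and 0.138 once the pseudogene share was a covariate), and its line difference under LPS was -1.11 ± 0.13 (adjusted p = 7.70e-05). Usp31 (1.04 in WT, 1.44 in KO) and Usp42 (1.15 and 1.03) rose in both lines, and Usp2 fell in both (-1.79 and -1.87). Under LPS 5 of the 48 were higher in KO, including Usp10 (0.67) and Usp46 (0.63), and 6 were lower. Over all genes 7.87% were called higher and 12.7% lower in that comparison, so these counts do not set the family apart.

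The other enzymes and proteases reported to act on ISG15 followed the LPS response in part. LPS called 6 of 9 higher in WT and 7 in KO, none lower, with medians of 0.47 and 0.52. Over all genes 16.3% were called higher in WT and 25.3% in KO. Trim25, a ligase for ISG15 and for the RNA sensor RIG-I, went from 153 ± 11 to 410 ± 36 CPM in WT and from 160 ± 13 to 229 ± 43 CPM in KO. It was lower in KO under LPS (-0.84 ± 0.13, adjusted p = 0.000717, edgeR). Ube2e2 rose by 1.22 in WT and 1.02 in KO. In the lines' comparison under LPS 1 of the 9 was called higher and 1 lower, beside 7.87% and 12.7% of all genes.

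Among 8 partners of ISG15 or USP18, 4 were called higher and 1 lower with LPS in WT, and 3 higher in KO, with medians of 0.44 and 0.12. Stat2, which carries USP18 to the receptor, rose by 2.20 ± 0.16 in WT (adjusted p = 1.92e-06, edgeR) and by 0.99 ± 0.16 in KO (adjusted p = 0.000731, and 0.129 once the pseudogene share was a covariate). It was lower in KO in medium (-0.86) and under LPS (-2.07). Sqstm1, an autophagy receptor, rose by 2.76 in WT and 3.06 in KO. Itgal and Itgb2, the subunits of the integrin LFA-1 that binds extracellular ISG15, were lower in KO under LPS (-0.71 and -0.79), and Itgb2 also in medium (-0.63).

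Of 16 proteins reported as ISG15 targets, LPS called 13 genes higher in WT (median 0.57) and 12 higher and 1 lower in KO (median 0.57). The lines differed under LPS for 7 of the 16, all lower in KO, and in medium for 5, also all lower. The largest differences under LPS included those of innate immune genes. Ifih1, encoding the RNA sensor MDA5, was at 59.8 ± 22.9 CPM in WT LPS and 1.77 ± 0.35 CPM in KO LPS (-5.08 ± 0.34, adjusted p = 1.72e-06, edgeR), and the antiviral GTPase gene Mx1 at 13.4 ± 2.2 and 0.62 ± 0.15 CPM. Ddx58, the RIG-I gene, differed by -2.50. Mx1 and the kinase gene Eif2ak2 (-1.38) are also on another list here.

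Genes of interferon signalling rose in 11 of 13 cases in WT and 12 of 13 in KO (medians 2.20 and 2.05). In KO under LPS 5 were lower than in WT and none higher. Irf7, a transcription factor for interferon genes, was at 145 ± 16 CPM in WT LPS and 24.4 ± 8.2 CPM in KO LPS, and Irf9 at 85.5 ± 3.9 and 52.4 ± 14.2 CPM. In medium 4 of the 13 were lower in KO, among them Irf7 (-2.05), Irf9 (-1.11) and Tyk2 (-1.05). The interferon-β gene Ifnb1, close to 0 in medium, was at 2.61 ± 1.09 CPM in WT LPS and 0.83 ± 0.37 CPM in KO LPS (adjusted p = 0.0239, edgeR), a call that was lost without WT LPS replicate 1, KO LPS replicate 2 or KO LPS replicate 3 (adjusted p up to 0.11).

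Against 22 other interferon-stimulated genes the 5 members did not sit in one place. All 22 rose with LPS in both lines (medians 5.49 in WT and 4.30 in KO). All 22 were lower in KO under LPS, with log2 fold changes from -4.43 to -0.59 and a median of -2.20. Isg15 and Herc6 lay above 21 of the 22 there, Ube2l6 above 18, Usp18 above 16 and Uba7 above 12. In medium 14 of the 22 were lower in KO and none higher (median -1.08), and Herc6 and Usp18 lay above all 22. These positions are descriptions, and no test of the members against the list was made.

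**Figure D4:**
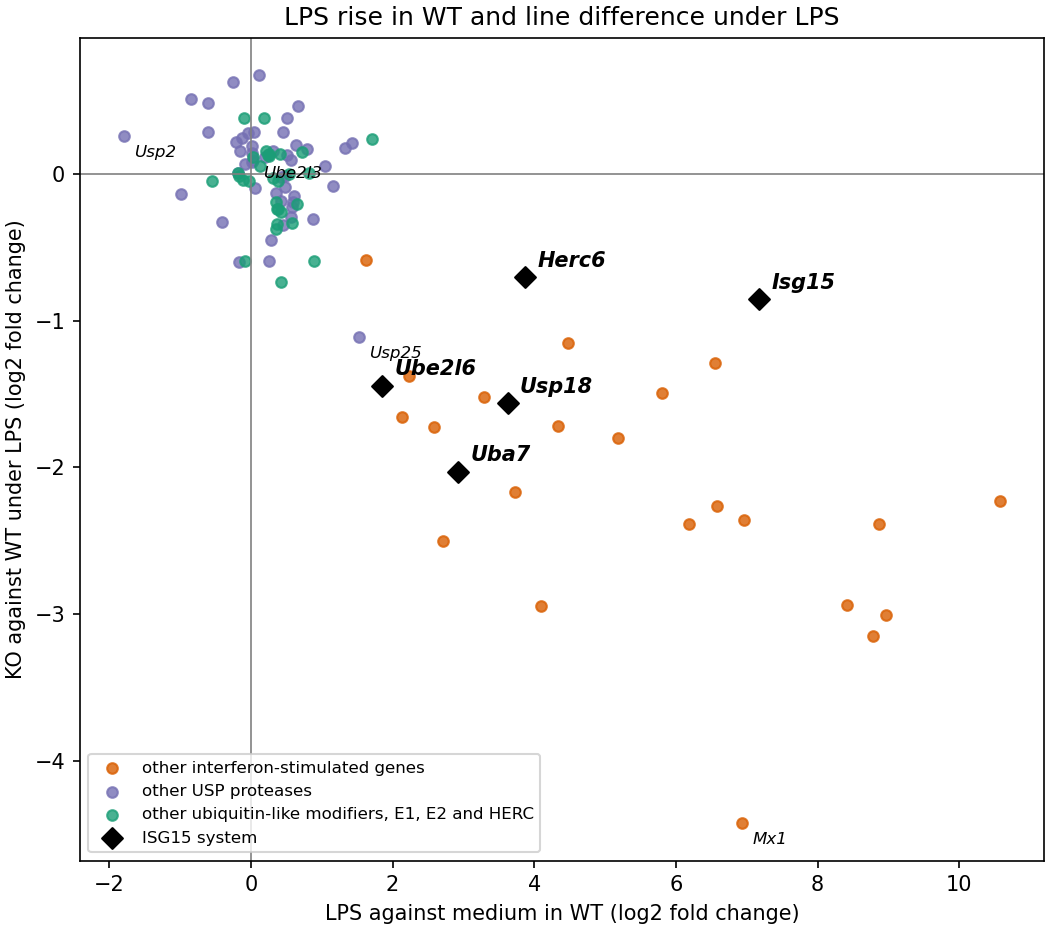
Log2 fold change with LPS in WT (x axis) and of KO against WT under LPS (y axis) for the ISG15 system (diamonds), other interferon-stimulated genes, other USP proteases and other ubiquitin-like modifiers, E1, E2 and HERC genes (points). Both axes use the WT LPS libraries, so the positions are not independent, and the 5 members lie apart from their enzyme families and among or above the interferon-stimulated genes.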

How the data were processed

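The authors deposited whole-number read counts for each Ensembl gene in 12 libraries of stranded total RNA. Per the submitters' processing notes, the authors used FastQC 0.11.9, Trimmomatic 0.39, STAR 2.7.9a, featureCounts and DESeq2 1.32.0 with GRCm39. Which annotation release and strand setting were used is not given in the sources used here, nor how reads with several positions were counted. Reads shared between genes could be split: 13.1% of the 31-base words of Isg15 transcripts, 2.89% of Uba7, 15.5% of Ube2l6, 13.8% of Herc6 and 3.48% of Usp18 also occur in another gene.

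Symbols for 52083 of 55416 identifiers and exon lengths came from a GRCm38 annotation, and identifiers without a symbol (6.49% of counts) stayed in. Tests on the counts used edgeR 4.0.16 (R 4.3.3). Steps were filterByExpr (count minimum 10, 26420 genes left), TMM scaling, and a robust quasi-likelihood fit of 4 group means to 12 libraries (biological coefficient of variation 0.235). Adjustment was by Benjamini-Hochberg over all genes tested, and a gene was called at an adjusted p under 0.05. Log2 CPM for likeness used a prior count of 2, and Isg15 ratios were tested on log2 counts with a prior of 0.5 in scipy 1.17.1. The script was tested on simulated counts.

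The 5 members, the lists of relatives, partners and targets and the markers were chosen with earlier results of these data known. Named genes are the members, called members of each list (the 3 with the largest change among those with mean log2 CPM of at least 2 where few) and the 3 nearest genes by likeness. Ube2l3, Uba6, Usp43 and the genes at the ends of a range were picked after their values were seen, and 1 gene that the rule names is not reported here. Alternatives were DESeq2 1.42.0, scaling by RLE or by library size alone, a count minimum of 50 or no filter, robust estimation off, leaving out the 50 most abundant genes, leaving out each library, a replicate block, a fit to only the groups compared, and a ratio prior of 2. The processed pseudogene share as a covariate, protein-coding genes only and list counts without KO LPS replicate 2 were chosen after seeing the data. Libraries with the same replicate number were not treated as pairs.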

Additional observations from a re-analysis of the deposited data

Results flagged for a closer look

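The LPS effect differed between the lines, by the interaction test in edgeR, for 3 of the 5 members and for genes of the lists, 7 of which are given here. For the members, the log2 LPS effect in KO minus that in WT was -1.48 for Uba7, -2.04 for Herc6 and -1.94 for Usp18. Herc6 started from a higher level in KO medium than in WT medium. Among the antiviral and signalling genes the LPS effect in KO minus that in WT was -4.63 for Mx1, -3.02 for Ifih1, -2.46 for Ifit2 and -1.21 for Stat2. Smaller differences were found for the ISG15 ligase gene Trim25 (-0.91) and the protease gene Usp25 (-0.89). Rtp4, which encodes a receptor transporter protein, was the exception in direction, at 2.72, with 6.28 ± 1.66 CPM (SD, n = 3) in WT medium, 0.283 ± 0.106 in KO medium, 127 ± 13 in WT LPS and 38.7 ± 17.1 in KO LPS. Its larger fold rise in KO thus started from a lower level and ended at a lower one.

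The Mx1 call held on leaving out any 1 library. Each of the other list calls was lost on leaving out certain single libraries. Those were, for Trim25, WT medium replicate 1, any WT LPS library, KO medium replicate 1 or 3, or KO LPS replicate 3. For Usp25 they were WT medium replicate 1 or 3, any WT LPS library, KO medium replicate 1 or 3, or KO LPS replicate 3, and for Stat2 WT medium replicate 1, any WT LPS library, or KO medium replicate 1 or 3. The Ifih1 call was lost without WT medium replicate 3, KO medium replicate 1 or 3, or KO LPS replicate 3. The Rtp4 call was lost without WT medium replicate 1, any WT LPS or KO medium library, or KO LPS replicate 3, and the Ifit2 call without any of these or WT medium replicate 3. The highest adjusted p over all alternatives was 0.109 for Trim25, 0.0982 for Usp25, 0.0705 for Stat2, 0.161 for Ifih1, 0.0973 for Rtp4 and 0.289 for Ifit2.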

How the results depend on the processing

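Of 626 recomputed member results, 583 kept their direction and, where a threshold applied, their side of it. For the Isg15 ratios only the direction was compared. Under scaling by library size alone the all-gene median was -0.40 (-0.07 with TMM) for LPS in WT and -0.29 (-0.03) in KO, and all member rises stayed called. With 1 library left out, KO against WT ranged from -0.40 to 0.04 in medium for Isg15 (0.019 and 0.037 without WT medium replicate 1 or 2), from 0.24 to 0.44 in medium for Usp18, from -1.16 to -0.55 under LPS for Isg15 and from -0.98 to -0.47 under LPS for Herc6. The interaction ranged from -1.69 to -1.27 for Uba7 and from -0.12 to 0.15 for Ube2l6. With the pseudogene share as a covariate, Uba7 was 1.52 for LPS in KO, Isg15 was -0.95 for KO against WT under LPS (adjusted p = 0.0300), and interactions were -1.44 for Uba7 (adjusted p = 0.193), -1.70 for Usp18 (adjusted p = 0.0774) and -0.012 for Ube2l6. Isg15 under LPS was also called by DESeq2 (-0.88) and among protein-coding genes only (-0.89, adjusted p = 0.0466). Herc6 under LPS was not called with library size alone (-0.64, adjusted p = 0.0622) or with only the groups compared (-0.73, adjusted p = 0.0514). The Uba7 interaction was not called without a filter (-1.52, adjusted p = 0.0509), with the 50 most abundant genes left out (-1.47, adjusted p = 0.0548) or with the replicate block (-1.50, adjusted p = 0.0731). Near 0, the Ube2l6 interaction changed sign without a filter (-0.018), with protein-coding genes only (-0.047) and with the replicate block (-0.00386). The cause of these changes was not tested. Same-numbered libraries of compared groups correlated at -0.37 to 0.39 in their deviations from the group means, not all over 0.1 for any compared groups, so the numbers were not taken as pairs. A hint of pairing remains in the data, as each KO medium library correlated best with the KO LPS library of its number. Each WT LPS library likewise correlated best with the KO medium library of its number (0.108, 0.162 and 0.231), although these groups were not compared. The fits and ratio tests reported above are unpaired. Isg15 counts per Uba7 count were also higher in KO than in the same-numbered WT library, by 1.43, 1.40 and 1.39 times in medium. Under LPS they were higher by 2.09, 2.09 and 2.09 times. This quotient was less even for the other enzymes, at 2.10 to 3.79 for Ube2l6, 0.30 to 0.60 for Herc6 and 0.64 to 0.91 for Usp18 in medium. Under LPS it ran from 1.15 to 1.69 for Ube2l6, 0.77 to 0.94 for Herc6 and 1.58 to 1.63 for Usp18. Over the alternatives, the highest interaction and KO medium counts being those without WT medium replicate 2, the number of genes called ran from 69 to 1606 (183 in the reported test) for higher and 116 to 2391 (240) for lower interactions. It ran from 558 to 6110 (1818) and 1784 to 5155 (3256) for higher and lower in KO medium, 2104 to 4849 (4303) and 2094 to 9985 (4297) for LPS in WT, 1342 to 7132 (6679) and 659 to 10422 (7070) for LPS in KO, and 1382 to 2922 (2080) for higher in KO LPS. Without KO LPS replicate 2, the lists held 21 of 22 interferon-stimulated genes, 4 of 13 signalling genes and 7 of 16 targets called lower in KO under LPS, and 3 of 48 other USP genes called higher and 5 lower.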
